A study of Mus musculus with 62 samples.

Results

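H3K27ac (histone H3 acetylated at lysine 27, which is found at enhancers and promoters in use) was compared between diaphragm (Dia), the flat muscle that drives breathing, and soleus (Sol), a slow postural muscle of the lower hindlimb. The members were genomic regions: peaks of the Dia and Sol H3K27ac lists that matched one to one with a reciprocal overlap of at least 50%. Of 33106 Dia peaks and 34173 Sol peaks, 19835 pairs matched, which was 59.9% of the Dia list and 58.0% of the Sol list. Each muscle was represented by 2 biological libraries from sedentary wild-type male C57BL/6 mice (C57BL/6J in the methods) that carried no transgene and received no treatment, and muscles of 3 animals were pooled for each sample per the methods of the study. The libraries held between 19189217 and 21478782 tags by the headers of the lists, and 1 input library (chromatin without immunoprecipitation) was available per muscle. The mice were bought as young adults, and their age at harvest is not given in the sources used here.

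The totals of the second Dia library of H3K27ac and of H3K4me2 stand the other way round in the supplement of the study than in the headers, so 1 of these sources has them exchanged. At the 11691 regions with both marks, the second Dia H3K27ac library had a Spearman's rho of 0.95 with the first, with which it shares peak widths and the export of 1 list, and of 0.65 with each of the 2 Dia H3K4me2 libraries. The 2 H3K4me2 libraries had a rho of 0.97 with each other. Without the second Dia H3K27ac library, rho between the Dia and Sol levels described below was 0.89 over all matched regions, beside 0.91 with it.

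Muscle fibers are named by their myosin heavy chain. Type I (slow) fibers use Myh7 and rely on mitochondria, whereas type II fibers use Myh2, Myh1 or Myh4 and, from the first to the last of these, contract faster and draw more on glycolysis. Mouse soleus is known for a large share of type I fibers, and mouse diaphragm for a mixture dominated by type IIa and IIx fibers that is nonetheless highly oxidative. Acetylated enhancers near a gene are a common guide to which of these programs a muscle runs, although an enhancer need not act on the gene nearest to it. Both muscles are bulk tissue, so fewer nuclei of a cell type and less acetylation per nucleus cannot be told apart.

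Sequences are shown for 5 intergenic regions whose H3K27ac differed, chosen because their nearest genes stand for the main gene groups described here. Each is the middle 300 bases of the interval shared by the Dia and Sol peaks, plus strand, from the RefSeq GRCm38.p6 genome, which has the mm10 coordinates of the peak lists. Capitals mark matches on either strand to the MEF2 consensus, the E-box CAGCTG, the nuclear receptor half-site AGGTCA, the MCAT element CATTCC, the AP-1 site TGANTCA and the GATA site AGATAA. The first pair was higher in Sol and the other three were higher in Dia.
Myh7, chr14:55004628-55004927: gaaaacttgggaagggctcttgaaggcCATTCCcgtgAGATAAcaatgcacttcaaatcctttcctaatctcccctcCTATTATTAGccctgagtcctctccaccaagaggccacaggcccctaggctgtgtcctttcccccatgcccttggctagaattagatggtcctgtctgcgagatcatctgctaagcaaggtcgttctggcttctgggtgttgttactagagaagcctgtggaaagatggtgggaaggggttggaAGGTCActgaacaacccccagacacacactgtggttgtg
Sox17, chr1:4617668-4617967: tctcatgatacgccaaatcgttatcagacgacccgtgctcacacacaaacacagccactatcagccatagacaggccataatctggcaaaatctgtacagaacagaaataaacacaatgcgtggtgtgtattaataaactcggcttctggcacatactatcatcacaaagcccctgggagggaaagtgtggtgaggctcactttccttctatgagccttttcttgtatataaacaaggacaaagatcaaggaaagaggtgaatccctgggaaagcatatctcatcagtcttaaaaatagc
Myl1, chr1:66975646-66975945: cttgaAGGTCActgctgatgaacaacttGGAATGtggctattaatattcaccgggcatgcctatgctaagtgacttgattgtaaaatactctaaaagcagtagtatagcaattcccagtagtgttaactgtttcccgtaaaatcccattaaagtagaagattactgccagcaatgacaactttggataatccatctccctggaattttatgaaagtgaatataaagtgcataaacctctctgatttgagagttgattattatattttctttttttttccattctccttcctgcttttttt
Ppargc1a, chr5:51132683-51132982: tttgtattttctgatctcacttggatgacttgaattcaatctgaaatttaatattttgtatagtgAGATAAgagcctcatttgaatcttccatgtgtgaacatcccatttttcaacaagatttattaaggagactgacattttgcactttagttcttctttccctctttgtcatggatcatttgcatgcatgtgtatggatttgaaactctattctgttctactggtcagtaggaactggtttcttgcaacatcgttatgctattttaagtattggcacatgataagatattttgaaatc
Bhlhe41, chr6:145895318-145895617: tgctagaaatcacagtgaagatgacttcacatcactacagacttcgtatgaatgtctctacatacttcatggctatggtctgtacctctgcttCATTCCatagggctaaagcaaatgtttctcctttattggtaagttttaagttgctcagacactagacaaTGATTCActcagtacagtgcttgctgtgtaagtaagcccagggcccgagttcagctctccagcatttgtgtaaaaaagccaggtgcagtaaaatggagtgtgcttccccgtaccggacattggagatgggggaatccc
The Myh7 window held 4 of these elements, among them 1 MEF2 match at bases 78 to 87 counted from the left end. The Sox17 window held none of them, which says only that these letters are absent from this stretch. The Myl1 window held an AGGTCA half-site and a CATTCC element on the opposite strand, the Ppargc1a window held 1 GATA site, and the Bhlhe41 window held 1 CATTCC element and 1 AP-1 site.

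The H3K27ac level of a region was the log2 tag value of a library minus the log2 of the peak width in kb, set relative to the median of that library over all matched regions, so that 0 is the level of a typical shared region. The Dia and Sol profiles were alike at the matched regions. Spearman's rho across regions was 0.91 between the muscle means, a description over 19835 regions that share libraries, and ranged from 0.87 to 0.90 over single pairs of Dia and Sol libraries. The 2 Dia libraries had a rho of 0.94 and the 2 Sol libraries a rho of 0.95. The difference of the means was under 1.5-fold in 17182 regions (86.6%). The SD of the Dia minus Sol difference over regions was 0.40 on the log2 scale, compared with 0.32 for the difference of the 2 Dia libraries and 0.27 for that of the 2 Sol libraries.

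Regions were counted as higher in 1 muscle when the means differed over 2-fold and the 2 libraries of 1 muscle did not overlap the 2 of the other. This held for 325 regions (1.64% of 19835), of which 111 were higher in Dia (0.56%) and 214 were higher in Sol (1.08%). Without the 2-fold requirement, the Dia libraries lay apart from and above the Sol libraries in 29.8% of regions and below them in 28.6%. No test was run, because the authors normalized each list separately and an exact permutation test of 2 against 2 libraries cannot give a two-sided p below 0.333. The balance of the directions depended on the scaling: after quantile normalization of the 4 libraries, 149 regions were higher in Dia and 102 in Sol. The SD of the level over regions was 0.93 and 0.95 in the Dia libraries and 0.83 and 0.77 in the Sol libraries.

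**Figure D1:**
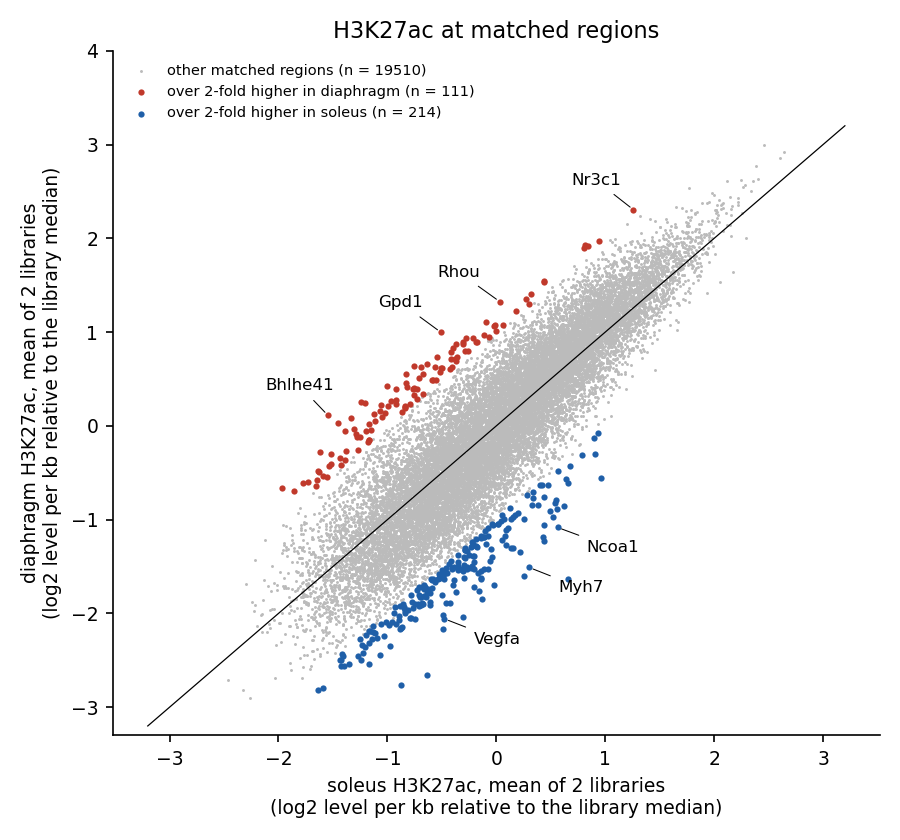
H3K27ac level of each matched region in Sol (x axis) and Dia (y axis), each the mean of 2 libraries on the log2 scale per kb and relative to the library median; the line marks equal levels. Gray points are the other matched regions, and the 111 red and 214 blue points are regions over 2-fold higher in Dia and in Sol, which form narrow bands along both edges of the cloud; the labelled genes were picked for position, Nr3c1 after its values were seen.

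The input moved with these differences. Placed on the same scale, the Dia minus Sol difference of the input columns had a median of 0.63 in the regions higher in Dia and -0.88 in those higher in Sol, beside 0.00 over all matched regions. It was above 0 in 107 of the 111 regions higher in Dia and in 2 of the 214 higher in Sol. The input columns were exported together with the tag columns of the same list, and their part in the differences was not tested. When the input column was subtracted from each library, 77 regions were higher in Dia and 58 in Sol, and these shared 10 of the 111 and 12 of the 214 regions. For most of the regions over 2-fold described below, the value after subtraction of the input is given as well.

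Genes of the slow sarcomere, the contractile unit of type I fibers, had a mean difference toward Sol in 10 of the 11 that could be compared. Over all 11029 nearest genes the mean was above 0 in 5843 and below 0 in 5186, the baseline for this count and for those of the lists below. Of 16 such genes, 11 had a matched region, with 18 regions in all. In 9 of the 18 regions (beside 28.6% of all regions) the Sol libraries lay apart and above, and in 0 regions did the Dia libraries do so (beside 29.8%). Over 2-fold higher in Sol were 3 regions, beside 1.08% of all regions. The median difference was -0.22 (log2, Dia minus Sol), beside 0.00 over all regions, and ranged from -0.70 to -0.06 over the 13 alternatives. Of these, the 1.5-fold threshold and the pairing by library number change only which regions are counted. They could not move the median of a list.

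The region with the largest difference among these genes lay upstream of Myh7, the slow myosin heavy chain (-10229 bases from its start), at chr14:55003318-55006238 in the Dia list. Its level was -1.57 and -1.45 in the Dia libraries and 0.42 and 0.19 in the Sol libraries. Both Sol libraries were above the typical region and both Dia libraries well below it, a 3.51-fold difference of the means (SD 0.09 in Dia and 0.16 in Sol, n = 2 each). It is the region whose sequence with the MEF2 match is shown above. After subtraction of the input the log2 difference was -0.77.

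The promoter of Myl2, which encodes the slow regulatory light chain, was at -1.16 and -1.44 in Dia and 0.27 and 0.00 in Sol, a 2.70-fold difference that stood at -1.01 (log2) after subtraction of the input. A second region upstream of Myl2 (-7409 bases) was 1.92-fold higher in Sol, just short of the threshold. Myh7b, a slow-type myosin heavy chain gene, had an intronic region 774 bases from its start at -1.68 and -1.60 in Dia and -0.07 and -0.21 in Sol (2.82-fold, -0.66 in log2 after subtraction of the input). At the Myl2 promoter and the Myh7b region the 2 libraries of a muscle were closer to each other than to any library of the other muscle. The rule that counts a region favors this, so nothing is read from it.

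The other slow genes differed less. The promoter region of Tnnc1, the slow and cardiac troponin C, was 1.53-fold higher in Sol although H3K4me2 there was 0.37 higher in Dia, and an intronic region of Myoz2, a slow-fiber Z-disc protein, was 1.74-fold higher, both with libraries apart. The 3 regions of Atp2a2, the slow and cardiac calcium pump, had log2 differences of -0.47, -0.23 and -0.16, and the libraries overlapped in the last. Both regions of Casq2, a calcium store protein, had values in the other direction (0.43 and 0.27) with overlapping libraries.

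Of 17 fast sarcomere genes, 11 had a matched region, and in all 11 the mean difference over the gene's regions was above 0, that is toward Dia. In 10 of 22 regions (45.5%, beside 29.8% of all) the Dia libraries lay apart and above, and in 3 (13.6%, beside 28.6%) the Sol libraries did. Over 2-fold higher in Dia were 2 regions, beside 0.56% of all regions. The median difference was 0.26, with a range of 0.11 to 0.65 over the alternatives.

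Myl1, the alkali light chain of fast fibers, had an intergenic region at chr1:66975146-66976426 (-30730 bases) that was at 0.43 and 0.83 in Dia and -0.73 and -0.66 in Sol (2.50-fold). Here the peaks overlapped by little more than the minimum, because the Sol peak was wider, and the log2 difference was 0.42 without the width term and -0.0045 after subtraction of the input. Myoz1, a fast-fiber Z-disc protein, had an intronic region at 0.25 and 0.74 in Dia and -0.75 and -0.35 in Sol (2.06-fold), with a log2 difference of 0.27 after subtraction of the input. Atp2a1, the fast calcium pump, had a broad region at 1.84 and 1.90 in Dia and 1.27 and 1.13 in Sol, 1.59-fold apart, and H3K4me2 there was higher in Dia by 0.61.

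Myh1 and Myh4, the myosins of type IIx and IIb fibers, could not be compared at matched regions. Myh1, Myh4 and Pvalb (parvalbumin, a calcium buffer of fast fibers) each had peaks in both lists, but none overlapped by 50% in both directions. The strongest Myh1 peak was 11.2 kb wide in Dia and 4.10 kb wide in Sol, and stood at percentiles of 86.2 and 50.9 of the level in its own list. The only Myh4 peak was 4.76 kb wide in Dia and 0.5 kb in Sol, at percentiles of 49.3 and 3.89. For Pvalb the widths were 3.92 kb and 1.95 kb and the percentiles 81.4 and 44.4. Among slow genes the order was opposite for Myl3, a slow light chain, whose peak was 2.65 kb wide in Dia and 5.34 kb in Sol, at percentiles of 33.6 and 92.6, and for Tnnt1, slow troponin T, whose peak was wider in Dia (8.07 kb and 4.23 kb) but stood at percentiles of 24.3 and 83.4. Tnni1 of the slow list stood at 49.2 in Dia and 74.0 in Sol. Sln, the sarcolipin gene that was placed in the slow list, went the other way, at 61.5 and 2.03. So did Myl6b of the slow list, with a Dia peak at 75.4 and no Sol peak. The remaining fast genes without a matched region stood at 84.7 and 54.8 (Mybpc2), 87.9 and 86.2 (Mylk2) and 94.9 and 79.1 (Tnnc2). The Tnnc2 peak was wider in Sol (13.0 kb) than in Dia (6.40 kb). Percentiles refer to separate lists and were not tested.

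Myh2, the type IIa myosin, had 2 matched regions with log2 differences of 0.16 and 0.24 and overlapping libraries. Acta1, the skeletal actin gene, was at 1.13 and 1.36 in Dia and 1.19 and 1.02 in Sol at 1 region, where the libraries overlapped, and was 1.59-fold higher in Dia at its promoter, with libraries apart. Ngdn, which the study displayed as an invariant control, had 1 region at its promoter with a difference of -0.01. The cardiac myosin gene Myh6 was not the nearest gene of any peak in either list.

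Glycolysis and glycogen genes had the highest share of regions above in Dia among the lists. The Dia libraries lay apart and above in 30 of 50 regions (beside 29.8% of all) and the Sol libraries in 3 (6.00%, beside 28.6%). In 22 of 25 genes the mean was above 0, and the median difference was 0.30 (0.18 to 0.38 over the alternatives). Gpd1, the cytosolic glycerol-3-phosphate dehydrogenase of the redox shuttle next to glycolysis, had an intronic region 554 bases from its start at 0.98 and 1.02 in Dia and -0.48 and -0.54 in Sol (2.84-fold, 0.66 in log2 after subtraction of the input). Both Dia libraries were above the typical region and both Sol libraries below it, and H3K4me2 was also higher in Dia by 0.59. Hk2, the insulin-responsive hexokinase, had an upstream region (-32222 bases) at 0.66 and 0.32 in Dia and -0.32 and -0.86 in Sol (2.11-fold), where the log2 difference was 1.15 after subtraction of the input. An intronic region of Pkm, pyruvate kinase, was 2.20-fold higher in Dia, with a log2 difference of 0.34 after subtraction of the input.

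Of 26 genes of fatty acid and oxidative metabolism, 20 had a mean difference above 0 and 6 below 0. The Dia libraries lay apart and above in 24 of 51 regions (47.1%, beside 29.8% of all) and the Sol libraries in 7 (13.7%, beside 28.6%). The median difference was 0.25 (0.09 to 0.38 over the alternatives). The 1 region over 2-fold lay near Mb, the gene of the oxygen store myoglobin, at 0.62 and 0.52 in Dia and -0.40 and -0.64 in Sol (2.13-fold, 0.77 in log2 after subtraction of the input). Other Mb regions differed in both directions, from -0.43 to 0.86. Slc27a1 and Fabp3, which take up and carry fatty acids, had regions up to 0.99 and 0.92 higher in Dia with libraries apart, whereas a region of Idh2 was 0.81 lower.

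**Figure D2:**
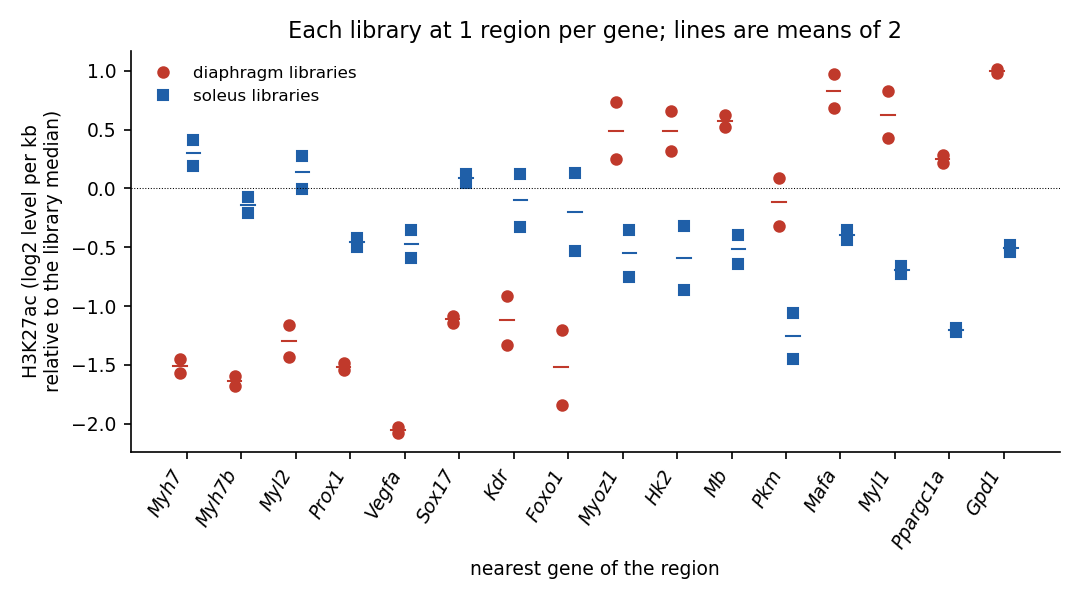
H3K27ac level (y axis, log2 per kb relative to the library median) of each Dia library (red circles) and Sol library (blue squares) at the region with the largest difference near each of 16 genes, with lines at the means of 2. The first 8 genes, Myh7 to Foxo1, were higher in Sol and the last 8, Myoz1 to Gpd1, were higher in Dia. The libraries of the muscles do not overlap at any of them, because only regions counted by that rule were drawn.

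Among 29 regulators of fiber type, 28 had matched regions. Of their 114 regions, 3 were over 2-fold higher in Dia (beside 0.56% of all regions) and 1 in Sol (beside 1.08%). Ppargc1a encodes PGC1α, the coactivator of mitochondrial genes, and had 2 such regions far downstream of its start. The region at chr5:51131516-51133734 was at 0.28 and 0.22 in Dia and -1.22 and -1.18 in Sol (2.74-fold), and the region at chr5:51439154-51440971 was at -0.32 and 0.22 in Dia and -1.40 and -1.38 in Sol (2.52-fold). After subtraction of the input their log2 differences were 0.55 and 0.71. Over its 8 matched regions Ppargc1a had a mean difference of 0.50 with an SD over regions of 0.64, so its regions did not move as 1 block. The first region had a mean of -0.95 in extensor digitorum longus (EDL) and -1.20 in quadriceps (Quad), both fast hindlimb muscles, relative to the median of regions matched in all 4 muscles. The Dia and Sol levels above are relative to all matched regions, a different baseline, so the 4 muscles are not ranked here.

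Mafa, a large Maf factor tied to the fastest fibers, had 3 matched regions that were all higher in Dia with libraries apart (1.51-, 1.53- and 2.33-fold). The strongest of these was at 0.97 and 0.68 in Dia and -0.36 and -0.43 in Sol, with a log2 difference of 1.06 after subtraction of the input and of 0.74 in H3K4me2. Prox1, a homeobox factor of slow fibers, had an intronic region at -1.55 and -1.48 in Dia and -0.42 and -0.50 in Sol (2.08-fold higher in Sol, -0.90 in log2 after subtraction of the input), whereas its other matched region, 838 bases from its start, differed by 0.07 with overlapping libraries.

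All 19 endothelial and pericyte genes had a matched region. The Sol libraries lay apart and above in 38 of 66 regions (57.6%, beside 28.6% of all) and the Dia libraries in 7 (10.6%, beside 29.8%). Over 2-fold higher in Sol were 4 regions, beside 1.08% of all regions. The mean difference was below 0, toward Sol, for 17 of these 19 genes. The list includes Vegfa, a vascular growth factor, and Cd36, which the fatty acid list also holds, so it is not made of cell markers alone. The median difference was -0.25 and stayed below 0 under the alternatives that could move it, but was only -0.05 after subtraction of the input. The library medians of this list were -0.78 and -0.45 in Dia and -0.26 and -0.23 in Sol.

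Sox17, an endothelial transcription factor of arteries, had 5 matched regions, all higher in Sol with libraries apart, and its mean difference (-0.83, SD over regions 0.29) was the lowest of the 626 genes with 5 or more matched regions. The region whose sequence is shown above was at -1.15 and -1.08 in Dia and 0.05 and 0.13 in Sol (2.30-fold, -0.77 in log2 after subtraction of the input). Vegfa, the vascular growth factor, had an upstream region (-20016 bases) at -2.03 and -2.08 in Dia and -0.36 and -0.60 in Sol (2.99-fold, -0.30 in log2 after subtraction of the input), while other Vegfa regions were up to 0.52 higher in Dia. Kdr, a receptor for this factor, had 1 region that was 2.03-fold higher in Sol, with a log2 difference of -0.66 after subtraction of the input.

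Markers of other cells were weighed in the same way. Skeletal muscle genes, which check the tissue, had a matched region in 12 of 12 cases, with library medians of 0.53 and 0.74 in Dia and 0.43 and 0.33 in Sol, all above the typical region. The Dia libraries lay apart and above in 17 of 35 regions (48.6%, beside 29.8% of all), and the Sol libraries in 4 (11.4%, beside 28.6%). That Dia share is close to those of the fast sarcomere list (45.5%) and the fatty acid list (47.1%). In 11 of 12 skeletal muscle genes the mean was above 0. Their median difference was 0.18, and 0.0064 after subtraction of the input. Neb, the giant thin-filament protein nebulin, had the 1 region of the skeletal muscle list over 2-fold higher in Sol (2.31-fold), where the log2 difference was -0.19 without the width term and -0.17 after subtraction of the input. Fibroblast and tendon genes (49 regions, median -0.14) and adipocyte genes (17 regions, median -0.23) had no region over 2-fold, and both medians turned positive after subtraction of the input (0.07 and 0.06). Immune genes had a matched region in 6 of 17 cases, with a median difference of -0.06 that also changed sign under 2 alternatives. Whether cell composition has a part in the differences at muscle genes was not tested.

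Mesothelium is the cell sheet that covers the diaphragm but not the soleus. Of 19 genes of mesothelium and diaphragm mesenchyme, 15 were the nearest gene of a Dia peak and 7 of a Sol peak, and 4 had a matched region. Their 13 matched regions, most of them near Nr2f2, had a median difference of -0.11, toward Sol, which turned to 0.27 after subtraction of the input. The libraries lay apart in 1 region toward Dia and 3 toward Sol, beside 29.8% and 28.6% of all regions. Of the 15 genes without a matched region, 8 had peaks in Dia only, 0 in Sol only, 3 in both and 4 in neither. Over all 3600 genes with a peak but no matched region, 1177 (32.7%) had peaks in Dia only and 1281 (35.6%) in Sol only. These shares leave out genes with no peak, so the 4 genes in neither list have no counterpart in them. The 8 genes were Wt1, Gata4, Bnc1, Krt19, Lrrn4, Rspo1, Upk1b and Upk3b. Wt1, a mesothelial transcription factor, had 2 peaks in Dia, the stronger at a percentile of 40.7 of the Dia list.

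Of 53 Hox and limb position genes, 16 had a matched region, and 24 regions had a median difference of -0.08 that changed sign under 2 alternatives. Among the 37 genes without one, 7 had a peak in Dia only, 10 in Sol only, 4 in both and 16 in neither, beside the shares of 32.7% and 35.6% over the 3600 genes given above. Those shares leave out genes with no peak, so the 16 have no counterpart in them. The 7 with a peak in Dia only were Tbx4, Tbx5, Shox2, Meis2, Isl1, Hoxb3 and Hoxb5. The 10 with a peak in Sol only were Hoxa2, Hoxa10, Hoxa11, Hoxb8, Hoxc5, Hoxc8, Hoxc9, Hoxc11, Hoxd9 and Pitx1, so Hox genes of anterior, middle and posterior groups were among them. Tbx4 and Pitx1 are factors of the hindlimb field and Tbx5 of the forelimb field. Their peaks were near the bottom of the level in their lists, at percentiles of 1.38 (Tbx4, Dia), 5.85 (Tbx5, Dia) and 6.69 (Pitx1, Sol). Others stood high, such as Meis2 in Dia (87.8) and Hoxc11 in Sol (88.7). Hoxd3 had the only matched region over 2-fold, at -0.85 and -0.55 in Dia and 0.29 and 0.39 in Sol (2.06-fold), and its difference was -0.35 without the width term and -0.32 after subtraction of the input. The absence of a peak is the absence of a call in a list, and its level was not compared.

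Of the remaining lists, fiber-type regulators had a median of 0.13, myogenic and satellite cell genes of 0.13, growth and atrophy genes of 0.11, core clock genes of 0.11, immediate early and stress genes of 0.07 and neuromuscular junction and Schwann cell genes of 0.03. All but the first and second of these changed sign under at least 1 alternative. Foxo1, which drives muscle atrophy genes, had a region 138234 bases downstream that was 2.50-fold higher in Sol, where the log2 difference was -0.29 after subtraction of the input. Klf4 had 2 regions over 2-fold higher in Sol, of which 1 went from -1.25 to 0.45 after subtraction of the input. The gene lists were chosen with earlier results of these data known, and their counts were not tested.

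**Figure D3:**
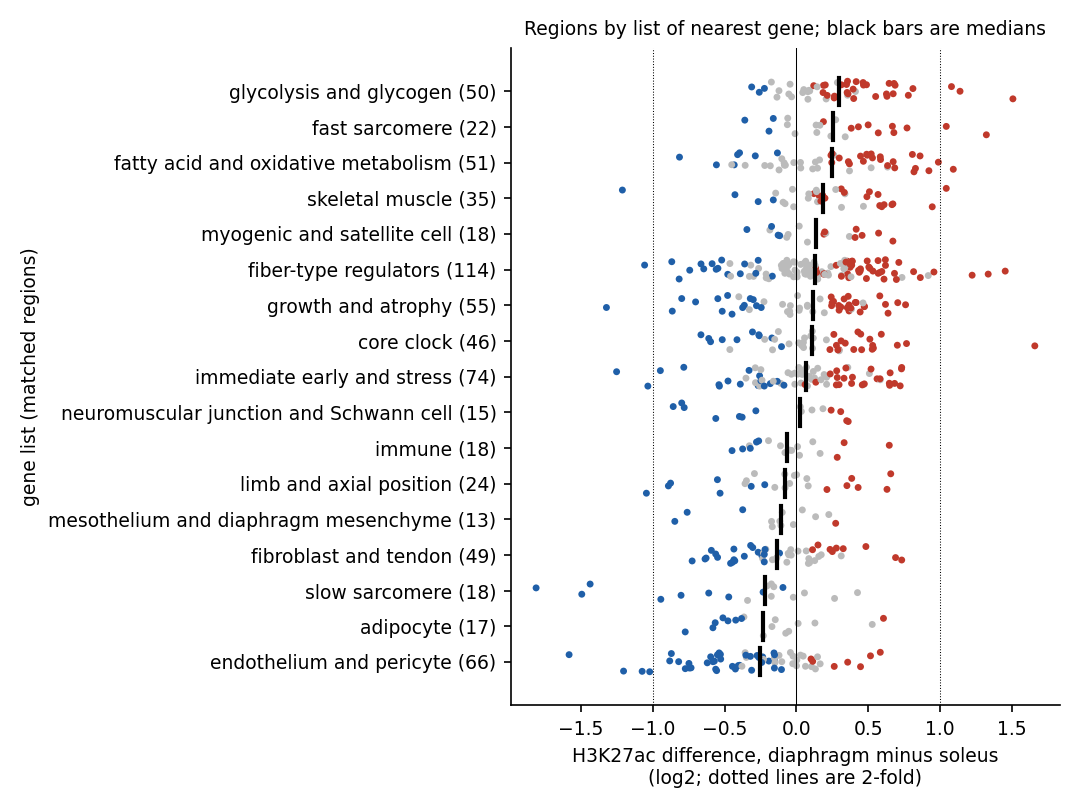
H3K27ac difference (x axis, Dia minus Sol, log2) of every matched region grouped by the list its nearest gene belongs to (number of regions in parentheses). Red points are regions whose Dia libraries lie above both Sol libraries, blue points the reverse and gray points overlap, and black bars are medians, from 0.30 for glycolysis and glycogen to -0.25 for endothelium and pericyte; among the lists drawn, the medians of adipocyte, fibroblast, mesothelium, limb, immune, neuromuscular, immediate early, core clock and growth genes change sign under at least 1 alternative.

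Across all genes, the largest difference toward Dia was at Bhlhe41, a transcriptional repressor linked to the clock, in an upstream region (-30031 bases) at 0.24 and -0.01 in Dia and -1.11 and -1.98 in Sol (3.16-fold). The Sol libraries were spread more widely there (SD 0.62) than the Dia libraries (SD 0.17), but both lay below Dia, and the log2 difference was 1.76 after subtraction of the input. After Bhlhe41 and Gpd1, the regions with the largest differences toward Dia lay near Mfsd4a (2.82-fold) and then, as log2 differences, Zfpm2 (1.49), Ppargc1a (1.45), Itga11 (1.43), Mir6364 (1.42), Arhgef3 (1.40), Kctd15 (1.38), Xylt1 (1.34), Myl1 (1.32), Rbm5 (1.31), Fam189a2 (1.31), Lrg1 (1.30) and Rhou (1.29). Zfpm2, a cofactor of GATA factors needed for diaphragm formation, had an intronic region 657 bases from its start at 0.04 and 0.02 in Dia and -1.75 and -1.16 in Sol. Itga11, a collagen-binding integrin of fibroblasts, had 4 matched regions, all higher in Dia with libraries apart, and 2 of them passed 2-fold. After subtraction of the input these 15 differences ranged from -0.0197 (Mfsd4a) to 1.76 (Bhlhe41), with 0.50 at Zfpm2, 0.47 at Mir6364, 0.15 at Arhgef3, 0.28 at Kctd15, 0.68 at Xylt1, 0.72 at Rbm5, 0.30 at Fam189a2, 0.42 at Lrg1, 0.38 at Rhou and 0.83 at Itga11.

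The largest difference toward Sol was at a region annotated to Mir331 (-3389 bases) that was at -1.82 and -1.44 in Dia and 0.86 and 0.46 in Sol (4.87-fold) and lay in a 3' UTR by the deposited annotation. The peaks were nearly equal in width, and the log2 difference was -0.62 after subtraction of the input. The next largest lay near Aldh8a1 (-2.02), Gm19395 (-1.89), 4933402C06Rik (-1.86), Myh7 (-1.81), Prrx1 (-1.73), Sox8 (-1.71), 4930521E06Rik (-1.68), Cadm2 (-1.67), 6430548M08Rik (-1.67), Ncoa1 (-1.65), Ift81 (-1.62), Trps1 (-1.60), Vegfa (-1.58) and Ablim1 (-1.56). Several of these were much smaller after subtraction of the input: -0.31 at Aldh8a1, -0.0834 at Gm19395, -0.35 at Prrx1, -0.61 at Sox8, -0.28 at 4930521E06Rik and -0.14 at Trps1. The others stood at -0.95 at 4933402C06Rik, -1.18 at Cadm2, -1.05 at 6430548M08Rik, -0.93 at Ncoa1, -0.88 at Ift81 and -1.38 at Ablim1. Ncoa1, a coactivator of nuclear receptors, was at -1.48 and -0.69 in Dia and 0.75 and 0.38 in Sol, and H3K4me2 there was lower in Dia by 1.16. Prrx1, a homeobox factor of limb mesenchyme, had 9 matched regions with differences from -1.73 to 0.44, and 2 of them were over 2-fold higher in Sol.

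Most genes with a changed region had only 1. Of 11029 nearest genes, 12 had 2 or more regions over 2-fold higher in Sol and 3 (Clic4, Itga11 and Ppargc1a, of which Clic4 is named after its values were seen) had 2 or more higher in Dia. Clic5, an intracellular chloride channel protein, was the single gene with 3, and all of its 8 matched regions had differences below 0 (-1.18 to -0.10), 7 of them with libraries apart. Over genes with 5 or more matched regions, the lowest means after Sox17 were those of Nucb2 (-0.80), Asap2 (-0.78), Mir7237 (-0.76), Hmgcll1 (-0.67), 1810011O10Rik (-0.63), Clic5 (-0.63), Dach1 (-0.59), 3830406C13Rik (-0.58) and 2310008N11Rik (-0.57). The highest were those of Neo1 (0.68), Tnrc6b (0.65), Gm973 (0.55), Sesn1 (0.54), Mir378b (0.54), Nup210 (0.54), Tacc2 (0.51), Ppargc1a (0.50), Myl1 (0.49) and Mir6364 (0.47). Tnrc6b, a component of the microRNA silencing complex, was among the most even, with 5 regions between 0.52 and 0.74. Sesn1, a stress-induced regulator of growth signaling, had 6 regions between 0.01 and 0.83.

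The regions over 2-fold lay away from promoters. Promoters made up 6 of 111 regions higher in Dia (5.41%) and 6 of 214 higher in Sol (2.80%), beside 3709 of 19835 matched regions (18.7%). The median distance to the nearest start site was 21220 bases in Dia-higher regions and 34032.5 bases in Sol-higher regions, beside 7514 bases overall. The promoters higher in Dia were those of Hes6, Tor1aip2, Dhrs7c, Gtpbp2, Amy1 and Sel1l3, and those higher in Sol were those of Myl2, Lmx1a, Myo18a, Ift81, 3110039I08Rik and Islr2 (all are named, after their values were seen). Of these, Dhrs7c, a dehydrogenase of the sarcoplasmic reticulum, was at 0.60 and 0.98 in Dia and -0.44 and -0.39 in Sol. Intergenic regions made up 37.8% of the Dia-higher and 50.9% of the Sol-higher regions, beside 26.7% overall. Peak widths differed by more than 1.5 times between the lists in 36.0% and 30.8% of the 2 sets, beside 18.4% of all matched regions.

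Levels chose these sets, so their medians are a description. The library medians of the Dia-higher regions were 0.28 and 0.50 in Dia and -0.73 and -0.83 in Sol. Those of the Sol-higher regions were -1.61 and -1.58 in Dia and -0.39 and -0.39 in Sol, so even in Sol these regions were less acetylated than the typical shared region. The median GC content of the middle 300 bases was 51.0% in Dia-higher, 47.7% in Sol-higher and 51.7% in all matched regions.

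The same 300-base windows were searched for the 6 elements marked in the sequences. The MEF2 consensus occurred in 9 of 214 Sol-higher regions (4.21%), 2 of 111 Dia-higher regions (1.80%) and 303 of all 19835 regions (1.53%), and in 0.557% of 32851 promoters of the same length. The AGGTCA half-site occurred in 28 of 111 Dia-higher and 45 of 214 Sol-higher regions, beside 18.8% of all regions and 16.3% of promoters. CATTCC occurred in 20.7% and 15.4%, beside 14.4% and 14.7%. CAGCTG occurred in 24.3% and 19.6%, beside 19.0% and 16.3%. AP-1 sites occurred in 7.21% and 10.7%, beside 9.05% and 7.81%, and GATA sites in 15.3% and 14.5%, beside 11.2% and 11.2%. These are matches of letters, not sites of binding, and no test was run on them.

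H3K4me2 (dimethylation of histone H3 at lysine 4, which marks promoters and enhancers whether or not they are acetylated) was measured in separate libraries, 2 per muscle, and its lists were matched and scaled in the same way. A matched H3K4me2 region was present at 11691 of the 19835 H3K27ac regions, at 47 of the 111 higher in Dia and at 43 of the 214 higher in Sol. The H3K4me2 difference was in the same direction as H3K27ac in 42 of 47 Dia-higher regions (89.4%) and in 37 of 43 Sol-higher regions (86.0%), whereas over all regions 54.1% were higher in Dia. The median differences were 0.42 and -0.31, beside 0.02 over all, and 0.38 and -0.38 without the second Dia H3K4me2 library. The H3K4me2 libraries lay apart and higher in Dia in 37 of the 47 (78.7%), beside 38.0% of all, and apart and higher in Sol in 29 of the 43 (67.4%), beside 29.2% of all. Across all 11691 regions, which share the 4 libraries of each mark, rho between the H3K27ac and H3K4me2 differences was 0.34. The regions counted as different after subtraction of the input had H3K4me2 medians of -0.0331 and -0.0165, so this relation held only for the level without that subtraction.

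**Figure D4:**
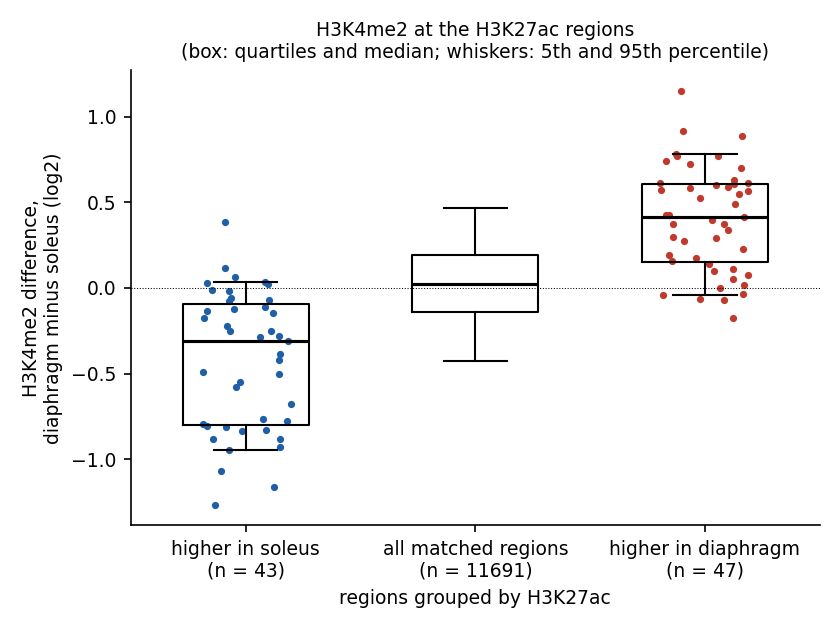
H3K4me2 difference (y axis, Dia minus Sol, log2) at H3K27ac regions over 2-fold higher in Sol (43 regions, blue), all matched regions (11691) and regions higher in Dia (47 regions, red); boxes give quartiles and medians and whiskers the 5th and 95th percentiles. The medians are -0.31, 0.02 and 0.42, and most blue points lie below 0 and most red points above it.

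Peaks of MED1, a subunit of the mediator complex that links enhancers to RNA polymerase, were called from 1 library per muscle, so they carry no replicate check. A Dia MED1 peak overlapped 2 of 111 Dia-higher regions (1.80%) and 0 of 214 Sol-higher regions, beside 1218 of all matched regions (6.14%). A Sol MED1 peak overlapped 1 Dia-higher region (0.901%) and 6 Sol-higher regions (2.80%), beside 1544 of all (7.78%). The Myh7 region was among the 6 with a Sol MED1 peak, and both sets held fewer MED1 peaks per region than the matched regions as a whole.

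The lists of EDL and Quad were set beside these regions. A peak with a reciprocal overlap of 50% was present in EDL for 71.2% of Dia-higher and 64.5% of Sol-higher regions, beside 83.4% of all, and in Quad for 69.4% and 53.7%, beside 79.5%. No EDL or Quad peak overlapped 40 Sol-higher regions (18.7%) and 8 Dia-higher regions (7.21%), beside 725 of all (3.66%). Among the Sol-higher regions without a matched EDL or Quad peak were those of Myh7, Myl2, Myh7b and Prox1.

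In 64 Dia-higher and 91 Sol-higher regions with a matched peak in all 4 muscles, levels were set relative to the library median over such regions. The Dia-higher regions had library medians of 0.27 and 0.30 in Dia, -0.12 and -0.18 in EDL, -0.21 and -0.32 in Quad and -0.77 and -0.89 in Sol. The Sol-higher regions were at -1.74 and -1.66 in Dia, -0.96 and -1.01 in EDL, -1.06 and -0.92 in Quad and -0.54 and -0.47 in Sol. The sets were chosen for extreme differences between Dia and Sol, so a place of EDL and Quad between them follows from that choice and nothing is read from it. The Gpd1 region was at 0.58 in EDL and 0.59 in Quad, the Hk2 region at 0.65 and 0.62 and the Itga11 region at -1.42 and -1.45. The Dia and Sol levels of single regions given earlier are relative to all matched regions, a different baseline, so the muscles are not ranked at these regions.

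**Figure D5:**
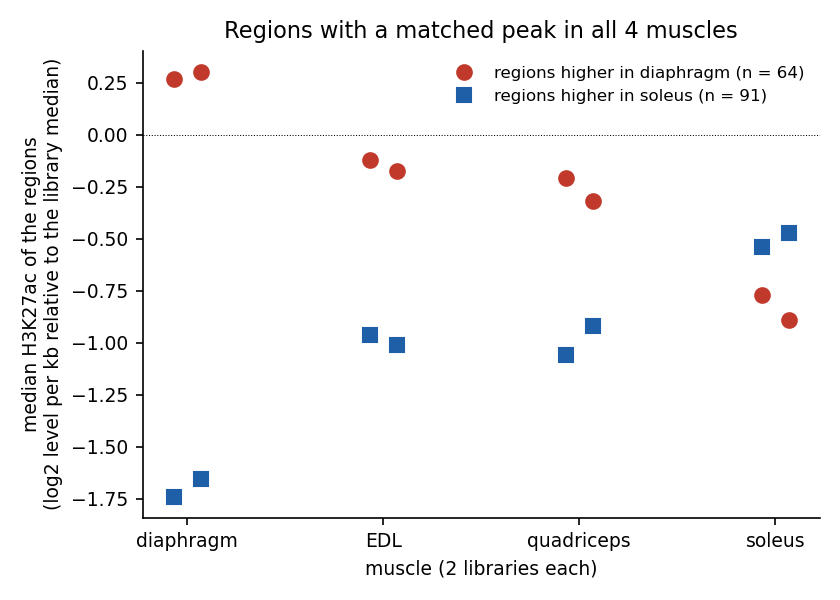
Median H3K27ac level (y axis, log2 per kb relative to the library median) in each of 2 libraries per muscle (x axis) over regions with a matched peak in all 4 muscles: 64 regions higher in Dia (red circles) and 91 higher in Sol (blue squares). The red medians run from 0.30 in Dia to -0.89 in Sol and the blue medians from -1.74 in Dia to -0.47 in Sol, with EDL and Quad in between, which the choice of regions by Dia and Sol favors.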

How the data were processed

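H3K27ac of Dia and Sol was compared in 2 libraries per muscle, grouped by sample titles. Per the labels and the study's methods, the authors aligned reads with Bowtie (1.2 in the submitters' processing notes) to mm10, kept 1 tag per position in HOMER and called peaks on both replicates together against input, at 2-fold and an FDR of 0.05. The tag columns the authors deposited are log2 values that DESeq2 exported for 1 list at a time, here assumed to be regularized logarithms. The authors' adjusted p-values served 1 alternative as a filter. The deposited MED1 lists, with the authors' peak score, were used for position only, and the authors' log2 fold changes were not used. Promoter, intron and intergenic classes and nearest genes are those of the deposited annotation, whose versions are not given in the sources used here; in 312 of 19835 pairs the lists named different genes, and the Dia name was used except for 28 date-like names, replaced from the Sol list.

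Pairs were taken in order of overlap. Levels, the 2-fold count and the 13 alternatives were computed in Python 3.11.15 with pandas 2.3.3 and scipy 1.17.1, tested on simulated data. Members, the 18 gene lists and the alternatives were chosen with earlier results of these data known. Named genes are the 15 largest differences each way (1 region per gene), genes with 3 or more regions over 2-fold in 1 direction, list genes with such a region, loci the study displayed, and the 10 highest and lowest means among genes with 5 or more regions. Replicate libraries held no identical values. Tags per region were not used, so intervals for counting error are not given.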

Additional observations from a re-analysis of the deposited data

How the results depend on the processing

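The number of regions over 2-fold (325 in all, 111 higher in Dia and 214 in Sol) moved with most settings. It was 92 in all (23 and 69) at a reciprocal overlap of 80%, 1265 (531 and 734) without the width term, 251 (149 and 102) after quantile normalization, 254 (88 and 166) above the lower quartile of level, 114 (46 and 68) at an adjusted p of the authors under 0.001 in both lists, and 2602 (1170 and 1432) at 1.5-fold. After the data were seen, 2 alternatives were added: subtracting the input gave 135 (77 and 58), and keeping peak widths within 1.5 times gave 218 (68 and 150). Leaving out 1 library gave 406 to 547 in all, 121 to 227 in Dia and 285 to 320 in Sol; these are values with no test. Spearman's rho was 0.91 and became 0.93 at 80% overlap, 0.94 without the width term, 0.86 above the lower quartile, 0.88 at the stricter p, 0.73 with the input subtracted and 0.92 with like widths (0.89 to 0.90 without 1 library).

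The H3K4me2 median of Dia-higher regions was 0.42 and ranged over 0.18 without the width term, 0.19 at 1.5-fold, 0.47 at 80% overlap, 0.55 with like widths and -0.0331, a reversal, with the input subtracted (0.28 to 0.40 without 1 library). That of Sol-higher regions was -0.31 and became -0.0165 with the input subtracted, -0.15 at the stricter p, -0.23 at 1.5-fold and -0.38 after quantile normalization or above the lower quartile (-0.38 to -0.25 without 1 library, which includes leaving out the second Dia H3K4me2 library, added after the data were seen). Single regions reversed only with the input subtracted, at Myl1 (-0.0045), Mfsd4a (-0.0197) and Klf4 (0.45). The cause of these changes was not tested. Of 234 list medians under the alternatives, 25 changed sign, in 10 of 18 lists. The 234 include the values at 1.5-fold and with the pairing by library number, where a list median could not change.

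Libraries 1 and 2 of the muscles share only a number. Their deviations from the muscle means correlated at 0.31. No model was fitted for this pairing by library number. In place of the rule on overlap, the Dia minus Sol difference had to have the same direction within each number. This gave 326 regions, 111 higher in Dia and 215 in Sol, with H3K4me2 medians of 0.42 and -0.31. The rho of 0.91 does not use the pairing and could not change. No read counts per region were used, so the depth limit of a single region is unknown.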
